A study of Homo sapiens with 6 samples.

Results

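The desmosome components were followed through a comparison of 2 colorectal cancer cell lines that differ in which allele of β-catenin (CTNNB1) they keep. The 9 genes were DSP, DSG2, DSC2, DSC3, PKP2, PKP3, PKP4, JUP and PERP, chosen by symbol as components of the desmosome, and each was 1 of the 18236 genes in the table. All 9 passed the filter on low values (a mean of at least 10 normalised counts over the samples), which 14539 of the 18236 genes passed. The cells derive from HCT116, an established human colorectal carcinoma line that carries 1 normal and 1 mutant CTNNB1 allele, the mutant allele lacking codon 45 (Δ45), which stabilises the protein. In HCT116-CTNNB1WT/- (called wild-type) the mutant allele is disrupted, and in HCT116-CTNNB1-/Δ45 (called mutant) the normal allele is disrupted, so both lines keep a single working allele and neither is the parental line. RNA of 3 samples per line was sequenced, with no treatment or time point. Each genotype is represented by 1 derived line, so genotype and line cannot be told apart. The labels do not say that the samples are separate cultures, and any p-value here covers sample-to-sample spread alone, part or all of which could be technical.

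Desmosomes are the junctions that rivet neighbouring epithelial cells together. The desmosomal cadherins, desmogleins (DSG) and desmocollins (DSC), bridge the gap between cells. Inside the cell their tails bind plakoglobin (JUP) and the plakophilins (PKP), which belong to the same armadillo family as β-catenin, and desmoplakin (DSP) ties this plaque to the keratin filaments. In simple epithelia such as that of the colon, DSG2 and DSC2 are the main cadherins of the junction. PERP is a tetraspan membrane protein of desmosomes.

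Reads counted in genes were 21.8 to 57.9 M per sample, and after the authors' scaling the normalised counts summed to 35.8 to 37.3 M. The libraries numbered 1 stood apart. Over the 9 members the median absolute log2 difference was 0.09 between wild-type 2 and 3 and 0.05 between mutant 2 and 3, but it was 0.15 between wild-type 1 and mutant 1, which were closer to each other than to their own lines (0.35 and 0.37 for wild-type 1 against wild-type 2 and 3, 0.59 and 0.45 for mutant 1 against mutant 2 and 3). Over the members wild-type 1 was also nearer to mutant 2 and 3 (0.305 and 0.307) than to its own line. Over all tested genes the libraries numbered 1 were also closer to each other (0.230) than to their own lines. There mutant 1 lay at 0.495 and 0.493 from mutant 2 and 3. Wild-type 1 was nearer to wild-type 2 and 3 (0.425 and 0.476) than to mutant 2 and 3 (0.543 and 0.542). The closeness of the libraries numbered 1 was thus not particular to the members. The limma fold changes of the members are therefore given with all samples and without both libraries numbered 1. Other values below are with all samples unless stated. On the authors' scaling the median log2 fold change of all tested genes, mutant over wild-type, was 0.24, so each member's fold change is also given relative to it. CTNNB1 itself was counted at 18594, 12532 and 12923 in the wild-type and 18704, 17838 and 18582 normalised counts in the mutant samples. Its gene counts do not separate the alleles and so do not check the labels.

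Of the 9 members, 3 were higher in the mutant line (DSP, DSG2 and PKP4) and 0 were lower by limma at an adjusted p under 0.05, against 17.3% of all tested genes called higher and 10.0% called lower (27.3% in either direction). At an unadjusted p under 0.05, 5 members were higher and 1 (JUP) was lower, beside 7288 of the 14539 tested genes in either direction. A count model (edgeR quasi-likelihood, run on reads recovered from the normalised counts) called 0 members in either direction, beside 12.3% and 11.2% of all genes. Unadjusted, it gave 4 members higher and 1 lower, beside 7093 of the 14539 genes at p under 0.05 in either direction. DESeq2 called 3 higher (DSG2, DSC2 and PKP4) and 1 lower (JUP), beside 21.7% and 20.6% of all genes. Without the libraries numbered 1, limma called 6 members higher (DSP, DSG2, DSC2, DSC3, PKP2 and PKP4) and 1 lower (JUP), beside 53.1% and 29.1% of all genes, and DESeq2 5 and 3, beside 37.7% and 37.9%. Without wild-type 1 alone limma called 6 higher and 1 lower (34.1% and 15.3% of all genes), without mutant 1 alone 5 and 1 (35.6% and 21.2%), and without mutant 2 (0.0413% and 0.117%), mutant 3 (0.0344% and 0.103%), wild-type 2 or wild-type 3 (0% of all genes) 0 members, with 2 or 3 higher and 1 lower unadjusted in each of these 4 fits. In these 4 fits, 4168 to 4343 of the 14539 genes had an unadjusted p under 0.05. Rescaling by TMM factors gave 2 higher and 1 lower (14.9% and 14.5%), a pseudocount of 5 gave 3 and 1 (18.0% and 10.4%), and the fit with no filter 3 and 0 (13.2% and 8.01%).

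The 3 mutant samples all lay above the 3 wild-type samples for 3 members (DSP, DSG2 and PKP2) and all below them for 1 (JUP), where 26.6% and 19.1% of all tested genes showed these patterns. The median log2 fold change of the members was 0.66, and 0.91 without the libraries numbered 1, when the median of all genes was 0.39. An exact permutation test of 3 against 3 samples cannot give a p below 0.1.

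**Figure D1:**
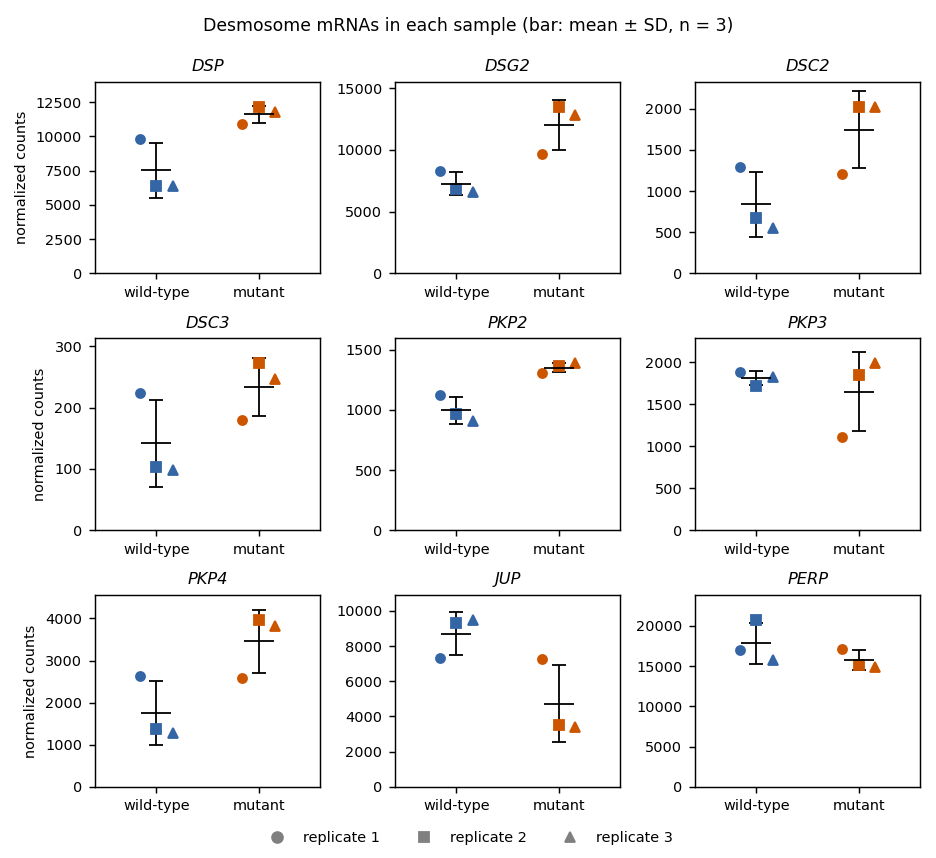
Normalised read counts (linear axes from 0) of the 9 desmosome genes in the 3 wild-type and 3 mutant samples, 1 panel per gene, with each point a sample, its shape the replicate number, and bars for the mean and SD (n = 3). JUP sits at 7318 to 9471 in the wild-type and 3386 to 7249 in the mutant samples, while PKP4 and DSC2 go the other way with the libraries numbered 1 between the rest.

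Promoter windows are shown for the 4 members whose windows held the E-box CAGGTG or its complement CACCTG, a 6-letter motif that ZEB and SNAI family repressors are known to bind. RefSeq (GRCh38.p14) gave 10 windows for 7 of the 9 members, from 250 bases before to 50 after a start. The E-box stood in 4 of these 10 windows with 7 matches in all, and in 20.6% of all 35116 windows of the same length. The first 250 bases of each of the 4 windows are printed 5′ to 3′ on the gene's strand, with the E-box letters in capitals.
DSP, chr6:7541421-7541670, plus strand: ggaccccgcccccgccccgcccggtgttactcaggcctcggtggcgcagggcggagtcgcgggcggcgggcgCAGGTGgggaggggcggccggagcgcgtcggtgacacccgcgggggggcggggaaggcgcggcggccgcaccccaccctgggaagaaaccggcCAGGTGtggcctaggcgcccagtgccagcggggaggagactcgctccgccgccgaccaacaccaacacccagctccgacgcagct
DSG2, chr18:31497927-31498176, plus strand: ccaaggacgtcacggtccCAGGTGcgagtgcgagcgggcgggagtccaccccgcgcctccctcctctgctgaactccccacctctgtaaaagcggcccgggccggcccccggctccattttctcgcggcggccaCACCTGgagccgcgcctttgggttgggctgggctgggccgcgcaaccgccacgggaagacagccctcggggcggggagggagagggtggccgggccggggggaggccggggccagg
DSC2, chr18:31102422-31102671, minus strand: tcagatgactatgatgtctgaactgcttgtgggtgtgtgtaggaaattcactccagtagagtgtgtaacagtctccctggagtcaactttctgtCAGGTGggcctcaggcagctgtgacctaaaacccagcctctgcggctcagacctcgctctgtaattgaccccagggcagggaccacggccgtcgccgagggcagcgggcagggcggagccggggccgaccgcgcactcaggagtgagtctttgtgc
JUP, chr17:41785977-41786226, minus strand: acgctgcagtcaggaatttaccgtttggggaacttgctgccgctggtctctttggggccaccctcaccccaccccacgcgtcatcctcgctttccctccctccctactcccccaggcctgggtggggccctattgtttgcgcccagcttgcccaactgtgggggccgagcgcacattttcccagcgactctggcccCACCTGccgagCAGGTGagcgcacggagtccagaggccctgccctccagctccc
Counted from the transcription start, the motif began at -178 and -85 in DSP, -232 and -116 in DSG2, -156 in DSC2 and -54 and -43 in JUP. The JUP and DSC2 windows shown are each 1 of 2 windows of the gene. Searched on both strands in the same way, the TCF/LEF motif CTTTGAT (complement ATCAAAG) was in 0 of the 10 windows and in 2.62% of all windows, and the ETS motif CGGAAG (complement CTTCCG) was in 1, that of PERP, and in 19.5% of all windows. These matches describe letters in a window and not sites that were measured.

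DSG2 (desmoglein 2, chromosome 18, 29078140 to 29128971, plus strand; all gene positions are on GRCh37) is the desmoglein of simple epithelia. It was measured at 8326, 6846 and 6600 normalised counts in wild-type 1, 2 and 3 and at 9700, 13485 and 12827 in mutant 1, 2 and 3. All mutant samples lay above all wild-type samples, and mutant 1 lay nearest to wild-type 1. Its mean was 7257 ± 934 in the wild-type and 12004 ± 2022 in the mutant line (SD, n = 3), a log2 fold change of 0.72 (SE 0.18, limma adjusted p = 0.0413, 0.47 relative to all genes, exact permutation p = 0.1). Without the libraries numbered 1 it was 0.97 (adjusted p = 5.33e-06). The call was lost without wild-type 2, wild-type 3, mutant 2 or mutant 3 (adjusted p 0.161, 0.15, 0.151 and 0.15), and with the GC adjustment described further on, where the log2 fold change was 0.11 (adjusted p = 0.531). The edgeR test gave an adjusted p of 0.0524, within a range of 2.55e-11 to 0.558 over the 25 alternatives.

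DSC2 (desmocollin 2, chromosome 18, 28638806 to 28682485, minus strand) is the partner cadherin in the same tissues. Its normalised counts were 1294, 673 and 546 in the wild-type and 1203, 2025 and 2016 in the mutant samples. The ranges overlapped, since mutant 1 lay below wild-type 1, while mutant 2 and 3 were far above all wild-type samples. The means of 838 ± 400 and 1748 ± 472 (SD, n = 3) gave a log2 fold change of 1.12 (SE 0.36), which missed the threshold with an adjusted p of 0.0544 (0.88 relative to all genes, exact permutation p = 0.2). It was called without wild-type 1 (adjusted p = 0.0130), without mutant 1 (0.0272) and by DESeq2 with all samples (0.0267), and the log2 fold change was 1.73 without both libraries numbered 1 (range of adjusted p over the alternatives 1.35e-23 to 0.216).

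DSC3 (desmocollin 3, chromosome 18, 28569331 to 28622781, minus strand) is best known from stratified epithelia, where it is a main desmocollin of the basal layers. It was the least abundant member, at 223, 104 and 98.3 normalised counts in the wild-type and 180.2, 272 and 247 in the mutant samples, down to 59 reads in wild-type 3. Again mutant 1 lay below wild-type 1, and mutant 2 and 3 lay above all wild-type samples. The log2 fold change was 0.80 (SE 0.38, adjusted p = 0.130, 0.55 relative to all genes, exact permutation p = 0.2) and was not called. Without wild-type 1 it was called (adjusted p = 0.0182), as it was at 1.35 without both libraries numbered 1 (adjusted p = 5.14e-05). Over the alternatives the adjusted p lay between 5.14e-05 and 0.630.

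The desmosomal cadherin genes stand side by side on chromosome 18, where 7 of them fill 559.6 kb in the order DSC3, DSC2, DSC1, DSG1, DSG4, DSG3 and DSG2. The 3 members at the ends of this cluster held 67202 reads over the 6 samples. The 4 genes between them, DSC1, DSG1, DSG4 and DSG3, which serve stratified epithelia, skin and hair, held 53 reads in all, and none of the 4 had more than 9 in a sample. The same 3 genes held nearly all reads of the cluster in both lines. Per kilobase of exon, DSG2 made up 90.3 ± 2.99% of the summed desmosomal cadherin level in the wild-type and 88.3 ± 1.10% in the mutant line (SD, n = 3), DSC2 7.63 ± 2.33% and 9.63 ± 1.06%, and DSC3 2.09 ± 0.676% and 2.1 ± 0.0708%. With all samples these shares moved by less than the spread between wild-type samples, which came mostly from wild-type 1. The DSG2 share was 91.5% and 92.5% in wild-type 2 and 3 and 87.8% and 87.5% in mutant 2 and 3. For DSC2 it was 6.83% and 5.81% against 10.0% and 10.4%, and for DSC3 1.71% and 1.70% against 2.18% and 2.08%. The nearest tested gene beyond DSG2, at 73.2 kb, was B4GALT6, a galactosyltransferase of glycolipid synthesis. It was higher in the mutant line as well, with a log2 fold change of 2.05 (limma adjusted p = 0.0413). At the other end the nearest tested gene beyond DSC3 was CDH2 (N-cadherin), far off at 2811 kb, and it was lower (-1.08, adjusted p = 0.0498).

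**Figure D2:**
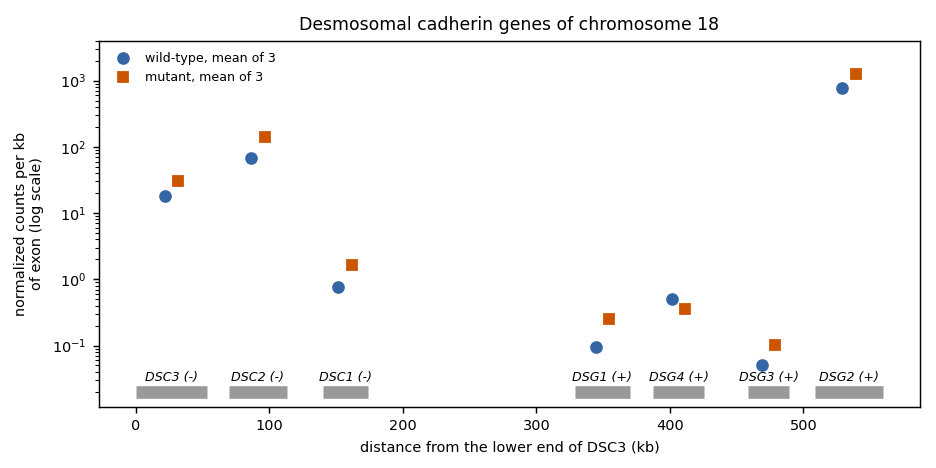
Mean normalised counts per kilobase of exon (log axis) of the 7 desmosomal cadherin genes of chromosome 18, placed by distance from the lower end of DSC3 in kb, in the wild-type and mutant lines (n = 3 each). DSG2, DSC2 and DSC3 stand above the 4 genes between them, which held 53 reads in all 6 samples together.

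JUP (plakoglobin, also γ-catenin, chromosome 17, 39910856 to 39943183, minus strand) binds the tails of desmosomal cadherins and of E-cadherin, and is the closest relative of β-catenin. It was measured at 7318, 9322 and 9471 normalised counts in wild-type 1, 2 and 3 and at 7249, 3514 and 3386 in mutant 1, 2 and 3. All mutant samples lay below all wild-type samples, but on the log2 scale mutant 1 differed from wild-type 1 by only -0.01, whereas the differences of the samples numbered 2 and 3 were -1.41 and -1.48. The means were 8703 ± 1202 and 4716 ± 2194 (SD, n = 3). The log2 fold change of -0.97 (SE 0.30, -1.21 relative to all genes, exact permutation p = 0.1) just missed the threshold of the limma fit with an adjusted p of 0.0508. It was called by DESeq2 (adjusted p = 0.0169), without wild-type 1 (0.0482) and without mutant 1 (0.00451), and was -1.45 without both libraries numbered 1 (1.02e-06). The edgeR test gave an adjusted p of 0.0618, within a range of 4.28e-96 to 0.184 over the alternatives.

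**Figure D3:**
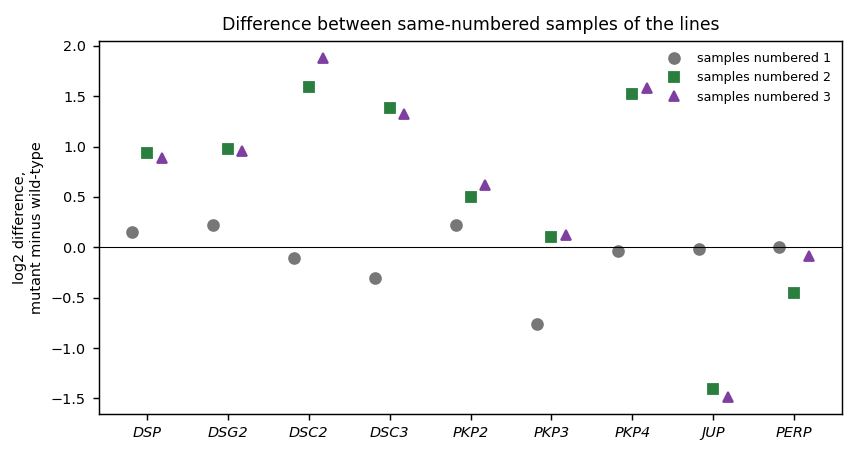
Log2 difference of normalised counts, mutant minus wild-type, between the samples that carry the same replicate number, for each member. For number 1 the differences lie between -0.76 (PKP3) and 0.22, while numbers 2 and 3 reach 1.88 (DSC2) and -1.48 (JUP). The numbers are labels only and were not shown to pair the samples.

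Since JUP and β-catenin can occupy the same place on cadherin tails, their levels were compared within each sample, per kilobase of exon, where the scaling factor cancels. The ratio of JUP to CTNNB1 was 0.936, 1.77 and 1.74 in the wild-type and 0.922, 0.469 and 0.434 in the mutant samples. JUP was thus above CTNNB1 in wild-type 2 and 3 and below it in the other samples. The ratio of JUP to DSP was 2.05, 4.05 and 4.11 in the wild-type and 1.83, 0.797 and 0.795 in the mutant samples, and that of JUP to the sum of DSG2, DSC2 and DSC3 was 1.47, 2.39 and 2.55 against 1.28, 0.439 and 0.444. For these 3 ratios the lines did not overlap (exact permutation p = 0.1 each, the smallest these sample numbers allow, 0.22 after Benjamini-Hochberg adjustment over the 11 ratios and shares compared). The libraries numbered 1 of both lines lay close together in each of them. The relation of fold change to exon GC content, described further on, does not cancel in a ratio of genes that differ in GC. Exon GC was 61.2% for JUP, 46.4% for DSP and 39.2% to 39.4% for DSG2, DSC2 and DSC3. That of CTNNB1 is not given here. None of the ratios was adjusted for GC content.

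DSP (desmoplakin, chromosome 6, 7541571 to 7586947, plus strand) is the plakin that anchors keratin filaments at the plaque. It was counted at 9839, 6349 and 6343 in the wild-type and 10920.5, 12158 and 11744 normalised counts in the mutant samples. All mutant samples lay above all wild-type samples, with wild-type 1 nearest to the mutant line. From means of 7511 ± 2017 and 11607 ± 630 (SD, n = 3) the log2 fold change was 0.66 (SE 0.20, limma adjusted p = 0.0472, 0.41 relative to all genes, exact permutation p = 0.1) and DSP was called higher. Without the libraries numbered 1 it was 0.91 (adjusted p = 5.23e-06). The call was lost without wild-type 2, wild-type 3, mutant 2 or mutant 3 (adjusted p 0.175, 0.164, 0.16 and 0.155), in edgeR (0.0888) and with the GC adjustment (0.33, adjusted p = 0.101), with a range of 1.31e-09 to 0.286 over the alternatives.

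Among the plakophilins, PKP4 (also p0071, chromosome 2, 159313464 to 159539391, plus strand), which occurs at both desmosomes and adherens junctions, was higher in the mutant line. Its normalised counts were 2640, 1382 and 1271 in the wild-type and 2583, 3961 and 3815 in the mutant samples. On the log2 scale mutant 1 differed from wild-type 1 by -0.03 and the ranges overlapped, whereas mutant 2 and 3 were above all wild-type samples. The means of 1764 ± 761 and 3453 ± 757 (SD, n = 3) gave a log2 fold change of 1.02 (SE 0.31, limma adjusted p = 0.0494, 0.78 relative to all genes, exact permutation p = 0.2). It was 1.55 without the libraries numbered 1 (adjusted p = 1.66e-06). Leaving out wild-type 2, wild-type 3, mutant 2 or mutant 3 ended the call (adjusted p 0.173, 0.165, 0.163 and 0.16), edgeR gave 0.0582, and the range over the alternatives was 1.12e-28 to 0.194.

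PKP2 (chromosome 12, 32943679 to 33049732, minus strand) is the plakophilin of simple epithelia and heart. It stood at 1121, 964 and 904 normalised counts in the wild-type and 1308, 1364 and 1387 in the mutant samples. The lines did not overlap, and the step between them was small. The log2 fold change of 0.45 (SE 0.17, adjusted p = 0.0721, 0.20 relative to all genes, exact permutation p = 0.1) was not called with all samples. It was called without wild-type 1 (adjusted p = 0.0240), without mutant 1 (0.0394) and at 0.56 without both (0.000279), with a range of 0.000279 to 0.964 over the alternatives.

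PKP3 (chromosome 11, 392614 to 404908, plus strand) is found in the desmosomes of most epithelia. Its normalised counts were 1884, 1718 and 1827 in the wild-type and 1113, 1848 and 1985 in the mutant samples. Mutant 1 was the lowest of all, and mutant 2 and 3 lay within or just above the wild-type range. The log2 fold change was -0.18 (SE 0.24, adjusted p = 0.561, -0.42 relative to all genes, exact permutation p = 0.9), and 0.11 without the libraries numbered 1 (adjusted p = 0.184), where edgeR, whose scaling puts the median of all genes near 0, called it lower (0.0144). Over the alternatives the adjusted p lay between 0.00121 and 0.983, so no direction is given for PKP3.

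Per kilobase of exon, PKP3 made up 63.4 ± 6.38% of the summed plakophilin level in the wild-type and 46.3 ± 3.57% in the mutant line (SD, n = 3), and PKP4 23.8 ± 6.67% and 39.0 ± 1.16%. Both shares were without overlap between the lines (exact permutation p = 0.1, 0.22 adjusted over the 11). The PKP3 share was 56.3%, 65.5% and 68.5% in the wild-type and 42.4%, 47.1% and 49.4% in the mutant samples. The PKP2 share was 12.8 ± 0.655% and 14.7 ± 3.24%, a difference within the spread of the mutant samples.

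PERP (chromosome 6, 138409642 to 138428556, minus strand) was the most abundant member in both lines. It was counted at 17063, 20718 and 15807 in the wild-type and 17135, 15120 and 14871 normalised counts in the mutant samples. The ranges overlapped, with mutant 1 above wild-type 1 and wild-type 3. The log2 fold change of -0.18 (SE 0.15, adjusted p = 0.355, -0.42 relative to all genes, exact permutation p = 0.3) was within the spread between samples. Without the libraries numbered 1 it was -0.27 and not called by limma (adjusted p = 0.0691), but it was called lower by edgeR (-0.65, adjusted p = 0.000892), by DESeq2 (-0.67, 1.22e-08) and by limma with the GC adjustment (-1.04, 3.05e-06). Over the alternatives the adjusted p of PERP ranged from 1.22e-08 to 0.793.

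**Figure D4:**
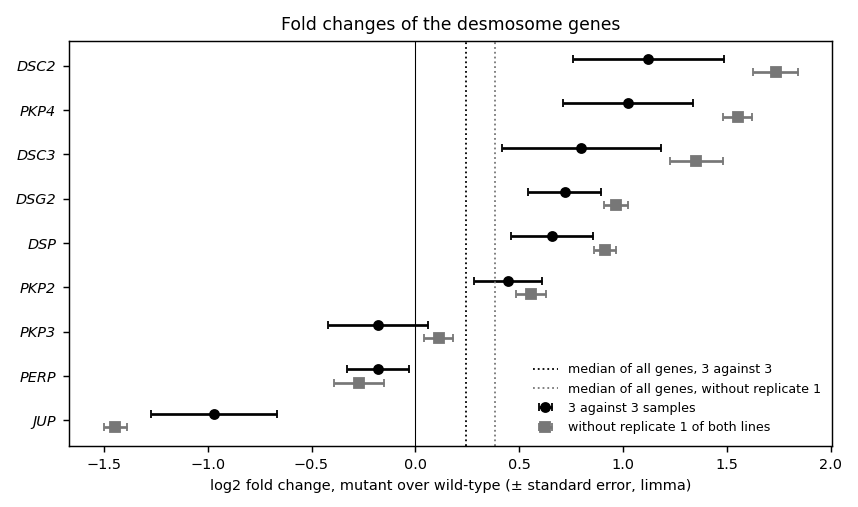
Log2 fold change of each member, mutant over wild-type, with its standard error, for all samples (limma, n = 3 per line) and without the libraries numbered 1 (n = 2 per line), beside the median of all genes under each (0.24 and 0.39). The members at the top and bottom are DSC2, at 1.12 and 1.73, and JUP, at -0.97 and -1.45.

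The order of the members by level was taken from normalised counts per kilobase of exon. In the wild-type line it ran PERP (4255 ± 608), JUP (1761 ± 243), DSG2 (765 ± 98.4), DSP (551 ± 148), PKP3 (477 ± 22.2), PKP4 (185 ± 79.8), PKP2 (96.8 ± 10.9), DSC2 (67 ± 32.0) and DSC3 (18.4 ± 9.19; SD, n = 3). Neighbours in this order whose ranges over samples overlapped were DSG2 and DSP, DSP and PKP3, and PKP2 and DSC2. In the mutant line DSG2 (1265 ± 213) stood before JUP (954 ± 444) and DSP (852 ± 46.2), and DSC2 (140 ± 37.8) before PKP2 (132 ± 3.94). There the overlapping neighbours were DSG2 and JUP, JUP and DSP, PKP3 and PKP4, and DSC2 and PKP2. The mutant levels of the other members were 3742 ± 296 for PERP, 434 ± 124 for PKP3, 362 ± 79.4 for PKP4 and 30.3 ± 6.18 for DSC3.

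Fold changes moved with the GC content of the exons across the whole table. The median log2 fold change was 0.57 in the GC quintile of tested genes with the lowest content and -0.15 in that with the highest, and 0.87 and -0.15 without the libraries numbered 1. Exon GC content was 39.4% for DSG2, 39.2% for DSC2, 39.3% for DSC3 and 40.4% for PERP, which fall in the lowest quintile, 44% for PKP2, 46.4% for DSP and 48.8% for PKP4, and 61.2% for JUP and 67.1% for PKP3, in the highest. With the median of each of 20 GC bins taken off in each sample, an adjustment chosen after the data were seen, 1 member remained called higher (PKP4, 0.80, limma adjusted p = 0.0494) and 0 were called lower (2 at an unadjusted p under 0.05), beside 13.9% and 13.3% of the 13901 genes with a GC value. Of these 13901 genes, 6795 had an unadjusted p under 0.05 in either direction. The adjusted log2 fold changes were 0.33 for DSP, 0.11 for DSG2, 0.52 for DSC2, 0.19 for DSC3, -0.01 for PKP2 and PKP3, -0.80 for JUP and -0.70 for PERP. With the same adjustment and without the libraries numbered 1, DSP, DSC2, DSC3, PKP3 and PKP4 were called higher and JUP and PERP lower, beside 41.4% and 41.3% of genes. With all samples the adjusted p was 0.101 for DSP, 0.531 for DSG2, 0.0937 for DSC2 and 0.076 for JUP, so DSP and DSG2 lost their calls.

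**Figure D5:**
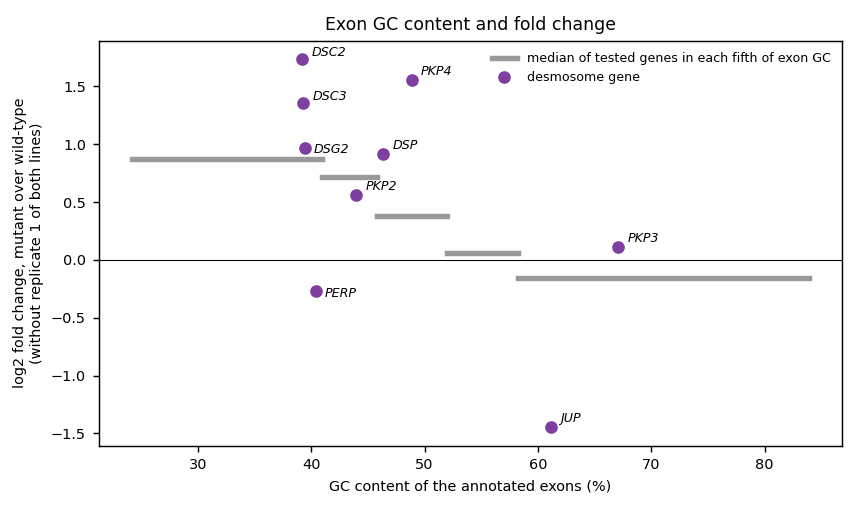
Log2 fold change (mutant over wild-type, without the libraries numbered 1, n = 2 per line) of the 9 members against exon GC content in percent, with the median of all tested genes in each GC quintile as a grey bar. The bars fall from 0.87 to -0.15, and PKP4 at 1.55 and DSC2 at 1.73 lie above them and JUP at -1.45 and PERP at -0.27 below them.

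Other genes of the junction and its partners were read from 6 lists, none of whose counts is a test of the list. Beside these counts, limma called 17.3% of all tested genes higher and 10.0% lower, edgeR 12.3% and 11.2%, and DESeq2 21.7% and 20.6%. The median log2 fold change of all tested genes was 0.24 by limma. The other desmosomal cadherins and plakophilins (DSG1, DSG3, DSG4, DSC1 and PKP1) and corneodesmosin (CDSN), all of stratified epithelia, were under 20 normalised counts in every sample, and 0 of these 6 genes passed the filter. Of the 5 keratins of simple epithelia, the filaments that desmosomes hold, 1 was higher (KRT20, 1.8, adjusted p = 0.0466) and 1 lower (KRT7, fell by 2.44 on the log2 scale, adjusted p = 0.0184), with a median of -0.29. Both were low, at 2 to 38 reads per sample for KRT20 and 18 to 166 for KRT7. The main pair did not pass, KRT8 with a log2 fold change of -0.29 and KRT18 with 0.49. Of the 6 plakins, the cytolinkers related to DSP, 2 were higher, DST (1.12, adjusted p = 0.0437) and MACF1 (0.83, adjusted p = 0.0413), and 1 was lower, plectin (PLEC, -1.38, adjusted p = 0.0413), with a median of 0.10. PLEC counted 32163, 59247 and 56445 in the wild-type and 28740, 15408 and 13899 in the mutant samples. The edgeR test called 0 keratins higher and 1 lower, and 1 plakin in each direction.

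In the cadherin-catenin complex of the adherens junction, 1 of 4 genes passed. CDH1, which encodes E-cadherin, was lower in the mutant line at 740, 516 and 472 normalised counts against 1160, 1647 and 1634, without overlap (log2 fold change -1.37, SE 0.25, adjusted p = 0.0335). CTNNB1 gave 0.35 (SE 0.18, adjusted p = 0.15). The median of the 4 was -0.32. Of 10 genes of desmosome assembly and turnover, 3 were higher by limma and 0 lower, namely FLOT2, a membrane raft scaffold (0.81, adjusted p = 0.0486), and ADAM17 (0.78, adjusted p = 0.0474) and ADAM10 (0.74, adjusted p = 0.0446), proteases that shed the outer part of desmoglein 2. Their median was 0.40, DESeq2 called 3 higher and 1 lower, edgeR called 0, and limma without the libraries numbered 1 called 7 higher and 1 lower, where 53.1% and 29.1% of all genes were called.

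Of 13 transcription factors linked to desmosome genes, 10 were tested, 2 were higher and 3 lower, with a median of 0.38. ELF3, an epithelial factor of the ETS family, was counted at 881, 817 and 798 in the wild-type and 131, 114 and 104 normalised counts in the mutant samples (log2 fold change -2.83, adjusted p = 0.00597). It separated the lines in all samples, those numbered 1 included. GRHL2, a grainyhead factor that maintains epithelial junction genes, fell by 2.84 on the log2 scale (adjusted p = 0.0266) from a low level of 41.7 ± 17.4 to 4.84 ± 1.89 (SD, n = 3). SNAI1 was lower (-1.27, adjusted p = 0.0410), and ZEB1, like SNAI1 a repressor of epithelial genes through E-boxes, was higher (0.80, adjusted p = 0.0428). CDX1, TP63 and ZEB2 were under the filter, and edgeR called 1 factor higher and 3 lower.

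The label of the cells was read from 6 colorectal epithelial markers, all of which passed the filter, though VIL1 was low (12.7 to 40.0 normalised counts). Their sum was 40008 to 42408 in the wild-type and 28565 to 39327 in the mutant samples. By limma 2 were lower, CDH1 and EPCAM (-0.82, adjusted p = 0.0462), beside 10.0% of all tested genes. Of the markers of other cells, the fibroblast list summed to 3582 to 4708 and 1977 to 4478, nearly all from COL1A1, with COL1A2, DCN and LUM under 20 in every sample. The leukocyte list summed to 3347 to 5273 and 725 to 1298, nearly all from CD68, with PTPRC and CD3E at 0 to 4.43. The endothelial list summed to 118 to 154 and 69.7 to 90.4, with 4 of 5 under 20, and the cardiac list to 92.1 to 116 and 13.8 to 39.2, with 3 of the 4 measured under 20. Of 7 keratinocyte markers 3 were in the table, and KRT10 alone made up nearly all of a sum of 3265 to 6235 and 1806 to 3859. In bulk RNA, fewer cells of a kind and less RNA per cell cannot be told apart.

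The pattern over the 6 samples was compared between genes by the Euclidean distance of centred log2 values. The nearest members were DSP and DSG2 (0.375), and DSC2 and PKP4 (0.234), with PKP4 also nearest to DSC3 (0.312). JUP stood farthest from the rest, at 1.26 from its nearest member, PERP. Outside the members the nearest tested gene was KIF13B for DSP (0.0525), CLCN3 for PKP4 (0.0726) and WASF2 for JUP (0.0814), and for DSC2 47 tested genes lay nearer than PKP4 did. The closeness of members to one another was therefore not particular to them.

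Chromosomal neighbours gave a mixed picture. Beside JUP, HAP1 was lower (-1.39, adjusted p = 0.0404), as was FKBP10 (-0.60, adjusted p = 0.0427), LEPREL4 was higher (0.94, adjusted p = 0.0435), and EIF1 gave -0.98 (adjusted p = 0.0588). Beside PKP3, IFITM3 was lower (-0.54, adjusted p = 0.0462), as was ANO9 (-1.14, adjusted p = 0.0348), and SIGIRR gave -0.68 (adjusted p = 0.0605). Beside PKP4, TANC1 was higher (0.77, adjusted p = 0.0472), and beside PERP, TNFAIP3 was lower (-1.73, adjusted p = 0.0147). In GENCODE 44, DSP, DSG2, DSC2 and PKP4 overlap antisense transcripts that are not rows of the table. The overlap was taken from whole gene spans, and shared exon bases were not looked for. The strand setting of the counting is not given in the sources used here. Reads from any shared exon bases could therefore not be assigned to 1 strand.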

How the data were processed

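RNA of 3 samples per line was prepared by the authors with a TruSeq total RNA kit and Ribo-Zero Gold (the labels name the molecule polyA RNA, which was not settled) and sequenced in paired ends. Reads were aligned with TopHat2 2.1.0 to hg19 and counted with htseq-count; CASAVA 1.8.2 is named in the submitters' processing notes, and other versions and the annotation are not given in the sources used here. The deposited values are a signal, gene counts divided by 1 DESeq size factor per sample. Divided by the value of 1 read, 100% of them came out whole in each sample (tolerance 0.001), and these recovered reads were used for count tests. The 2 deposited columns of the authors' own comparison (log2 ratio and adjusted p) were not used.

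Log2(value + 1) of genes with a mean of at least 10 was fitted with limma 3.58.1 (trended empirical Bayes), with Benjamini-Hochberg adjustment over 14539 genes and a threshold of 0.05; fold changes on this scale understate those of low genes. Permutation tests were exact and two-sided. Alternatives were edgeR 4.0.16, DESeq2 1.42.0, TMM rescaling, a pseudocount of 5, no filter, a replicate block and leaving out samples; the GC adjustment, and edgeR and DESeq2 without the libraries numbered 1, were chosen after the data were seen. Exon lengths and GC content came from GENCODE 44 on GRCh37 (15673 symbols matched directly, 1482 by an older symbol, 1081 not). Members and lists were chosen with earlier results of these data known. Named genes are the members, up to 3 called genes with the largest change per list plus CDH1, CTNNB1, KRT8 and KRT18, the nearest genes by pattern, and tested neighbours (2 on each side, those printed chosen after their values were seen). The values of 1 list gene are not reported here. Scripts were tested on simulated data.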

Additional observations from a re-analysis of the deposited data

How the results depend on the processing

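The calls rested on few samples. By limma, 3 members were called higher and 0 lower, of 3976 genes called in all and 14 genes of the pathway lists, markers of cell types left aside. Leaving out 1 sample at a time, with limma or edgeR, gave 0 to 6 members higher, 0 to 2 lower, 0 to 8261 genes and 0 to 22 list genes. By limma the total was 7184 without wild-type 1 and 8261 without mutant 1 (6698 and 8247 by edgeR), but 0 without wild-type 2 or wild-type 3, 23 without mutant 2 and 20 without mutant 3 (4168, 4343, 4216 and 4300 at an unadjusted p under 0.05), and no member was called in these last 4 fits (2 or 3 higher and 1 lower unadjusted). Without both libraries numbered 1, limma called 6 members higher, 1 lower, 11944 genes and 31 list genes, edgeR 6, 3, 11946 and 31, and DESeq2 5, 3, 10996 and 30.

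With all samples, edgeR called 0 members higher (4 unadjusted) and 8 list genes, and with RLE factors 0 (4 unadjusted) and 9. Over all genes, 7093 and 7121 had an unadjusted p under 0.05 in these fits. DESeq2 called 1 member lower and 6153 genes, rescaling by TMM factors 1 lower, and a pseudocount of 5 1 lower. The GC adjustment left 1 member higher, and without the libraries numbered 1 it gave 5 higher, 2 lower, 11492 genes and 28 list genes. The replicate block called 0 members higher, 0 genes and 0 list genes, and with the GC adjustment also 0 (4305 and 4252 genes at an unadjusted p under 0.05). Same-numbered samples deviated from the means of their lines in opposite directions (correlations -0.53, -0.43 and -0.31), and no sample correlated best with its own number. Since the libraries numbered 1 each lay towards the other line, their deviations are opposite whether or not the samples are paired. The check therefore cannot decide whether the numbers pair the samples.

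PKP3 changed sign from -0.18 to 0.0825 without mutant replicate 1 (range -0.3345 to 0.0825 by limma with 1 sample left out), 0.11 without the libraries numbered 1 and 0.32 with the GC adjustment as well. PKP2 changed sign from 0.45 to -0.0107 with the GC adjustment, -0.0107 with the block added and -0.11 without the libraries numbered 1. The cause was not tested. The other members kept their direction in all 25 alternatives. Depth limits DSC3 most, at 59 reads in its shallowest sample.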
